A study of Mus musculus with 6 samples.

Results

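The calcitonin-like receptor and its partners were taken as 5 genes of the 32285 listed in the files: Calcrl, Ramp1, Ramp2, Ramp3 and Adm. They were found by gene symbol, each matching a single row, and were followed across cell types and between treatments in nuclei of the rd10 mouse retina. The genes were chosen from a contrast of these same libraries, IL-27 against saline, so their values in that contrast are given below as a description without a test. The samples were 6 droplet libraries of retinal nuclei from rd10 mice of the strain B6.CXB1-Pde6b-rd10/J, which carry a defect of the rod phosphodiesterase and lose rods and then cones. All eyes were injected into the vitreous at postnatal day 18 and collected at postnatal day 20: 3 libraries (replicates 4, 5 and 10) followed 20 ng of recombinant IL-27 and 3 (replicates 1, 2 and 6) followed saline, and no uninjected or wild-type retina was among them. The labels do not say how many retinas or animals entered a library, so the spread between libraries may be partly technical.

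Calcrl encodes a receptor of the calcitonin family that works only as a pair with 1 of 3 single-pass membrane proteins, the receptor activity-modifying proteins. With the product of Ramp1 it forms the receptor for calcitonin gene-related peptide, and with the products of Ramp2 or Ramp3 it forms the adrenomedullin receptors. Adm encodes adrenomedullin, a secreted peptide that widens vessels and maintains the endothelial barrier and that hypoxia is known to raise. The receptor acts mainly through Gs and cyclic AMP, and blood vessels are its best-known site.

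The libraries held 8968 to 9965 barcodes and 36678332 to 48260748 unique molecular identifiers (UMIs). After filters 52203 nuclei remained, with library medians of 2782 to 3786 UMIs, the lowest in IL-27 replicate 10, and each of the 15 pairs of libraries shared 18 to 30 barcode sequences. Clusters were named from marker lists, so each name below stands for nuclei that are like that type. They gave 242 endothelial, 133 mural, 4764 Muller, 292 astrocyte, 1719 microglia, 15371 rod, 3318 cone, 10024 bipolar, 494 horizontal, 10648 amacrine and 2179 ganglion nuclei, and 662 ciliary-epithelium-like nuclei, of which 82.9% came from saline libraries. The ciliary-epithelium-like nuclei numbered 230, 220 and 99 in saline replicates 1, 2 and 6 and 12, 6 and 95 in IL-27 replicates 4, 5 and 10. IL-27 replicate 10 was thus close to saline replicate 6. The microglia cluster also held smaller groups led by genes of other leukocytes, such as Ccr2, Clec9a, Ccr7 and Lck. Levels are UMIs of a gene per 1000000 UMIs (CPM) of the nuclei of a type summed within a library, and errors are SDs over libraries. The endothelial marker list summed to 9930 to 11700 CPM in endothelial nuclei, and the mural list to 3240 to 8790 CPM in mural nuclei, where saline replicate 6 also held the pigmented epithelium list at 4600 CPM.

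In the GENCODE M21 annotation (GRCm38), looked up by gene ID, Calcrl (ENSMUSG00000059588) lies on the minus strand at chr2:84330626-84425411. Ramp1 (ENSMUSG00000034353) is at chr1:91179822-91225196 and Adm (ENSMUSG00000030790) at chr7:110627661-110629820, both on the plus strand. Ramp2 (ENSMUSG00000001240) is at chr11:101246028-101259546, where its exons overlap those of Vps25 on the same strand. Reads there may match both genes, and how such reads entered the counts was not looked at. Ramp3 (ENSMUSG00000041046) is at chr11:6658521-6677475, and its exons overlap the pseudogene Gm11978 on the opposite strand. RefSeq promoter sequence (GRCm38.p6) was at hand for 4 of the 5 genes, the missing one being Ramp2. The sequences of Calcrl and Adm are shown because they are the receptor and the ligand of the set. For Calcrl the stretch is chr2:84425412-84425516 on the minus strand, the 105 bases farthest upstream in the table, and for Adm it is chr7:110627407-110627656 on the plus strand, with capitals marking a match to the letters GGAAG, the core bound by ETS factors.
Calcrl: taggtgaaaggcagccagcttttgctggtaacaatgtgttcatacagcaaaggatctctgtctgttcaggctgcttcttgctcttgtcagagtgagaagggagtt
Adm: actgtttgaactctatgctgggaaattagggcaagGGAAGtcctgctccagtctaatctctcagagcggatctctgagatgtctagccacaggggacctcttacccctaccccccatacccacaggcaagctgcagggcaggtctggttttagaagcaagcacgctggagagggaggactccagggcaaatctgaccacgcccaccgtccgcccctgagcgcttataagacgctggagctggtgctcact

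Both strands were searched for TTCNNNGAA (a pair of STAT half-sites), ACGTG (the hypoxia response core), GGAAG and TGACGTCA (the full cyclic AMP response element). The Calcrl stretch held none of these letters, which occur in 3.03%, 6.35%, 32.9% and 0.183% of 32851 promoter stretches of the same length. The Adm stretch held 1 GGAAG, which overlapped no other match and which 64.1% of promoter stretches of its length also hold, and none of the other 3, which are found in 7.02%, 16.6% and 1.55%. A match is a description of letters only.

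Calcrl, the receptor, was highest in endothelial nuclei, followed by mural nuclei and Muller glia. Its level was 299 ± 69.5 CPM in endothelial nuclei (n = 6 libraries, 186 to 386 CPM, 178 UMIs). In mural nuclei it was 80.2 ± 35.3 CPM (36.2 to 139, 24 UMIs) and in Muller glia 75.9 ± 25.2 CPM (50.7 to 122, 1592 UMIs). Every endothelial library lay above every mural and Muller value, whereas the mural and Muller ranges overlapped. The ciliary-epithelium-like cluster (34.5 ± 40.6 CPM, 0 to 114, 57 UMIs) and microglia (30.7 ± 10.4 CPM, 14.4 to 40.2) came next, and their ranges overlapped too. The ciliary-epithelium-like mean was 18.5 CPM, below that of microglia, without IL-27 replicate 4, whose value came from 4 UMIs in 12 nuclei. All microglia libraries lay above the highest amacrine value of 5.79 CPM. Amacrine (4.71 ± 0.782 CPM), ganglion (2.85 ± 1.31) and rod (2.67 ± 1.41) ranges overlapped, the means of the cone, bipolar and horizontal sums were under 1.8 CPM, and no UMI was counted in the astrocyte sums. Because Muller nuclei were many, they held 62.2% of the 2664 Calcrl UMIs of all retained nuclei, against 7.55% in endothelial nuclei.

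**Figure D1:**
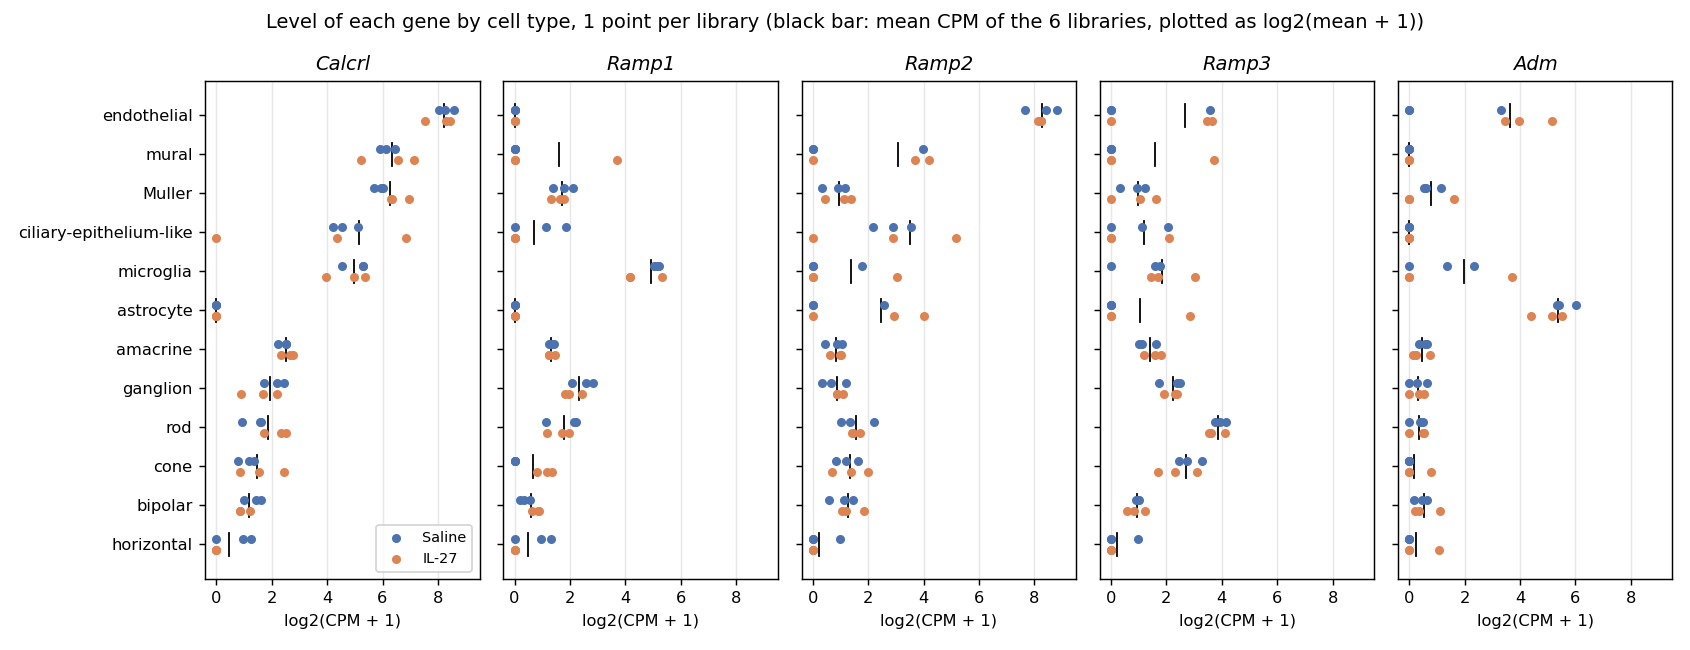
Level of each gene in the 12 named cell types on a log2(CPM + 1) axis, with 1 point per library (saline blue, IL-27 orange) and a black bar at the mean of the 6 libraries. Calcrl is shared by endothelial, mural, Muller and microglia sums, Ramp2 stands out in endothelial, Ramp1 in microglia, Ramp3 in rod and Adm in astrocyte sums.

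Counted per nucleus, 88 of 242 endothelial nuclei (36.4%, 95% exact binomial interval 30.3 to 42.8%, counting error only) and 1069 of 4764 Muller nuclei (22.4%, 21.3 to 23.7%) had a Calcrl UMI, at median depths of 2357.5 and 4428 UMIs. The share was 14.3% in mural nuclei (8.83 to 21.4%) and 5.41% in microglia (4.39 to 6.59%). Rods, taken as a type that should lack the gene, had 0.358% (0.27 to 0.465%) at a median of 1270 UMIs. After every nucleus was thinned to 1000 UMIs, the shares were 23.3% endothelial (17.8 to 29.5%), 6.64% Muller (5.95 to 7.39%), 6.35% mural (2.78 to 12.1%), 2.98% microglia (2.18 to 3.96%) and 0.266% rod (0.18 to 0.38%). Thinning left out 27 endothelial, 37 Muller, 7 mural, 208 microglia and 4093 rod nuclei that were shallower. At equal depth the endothelial share was thus the highest of these types, and the Muller and mural shares overlapped and stayed above that of rods. Endothelial nuclei held up to 11 Calcrl UMIs and Muller nuclei up to 12.

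The 4 genes whose mean log2(CPM + 1) over the 12 types followed that of Calcrl most closely, among 15456 genes, were Flt1, Nostrin, Serpinb9 and Il6st, with Pearson r between 0.904 and 0.943. The 12 points share libraries and depth, and r is given as a description. Flt1, a receptor for vascular endothelial growth factor, was at 3510 CPM in endothelial sums and 1350 CPM in Muller sums, and Il6st, the signalling subunit shared by the IL-6 family and the IL-27 receptor, at 148 and 110 CPM.

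Ramp2 was concentrated in endothelial nuclei, where Calcrl was also highest. These were 0.464% of the retained nuclei and held 46.7% of the 499 Ramp2 UMIs. The endothelial level was 312 ± 81.0 CPM (201 to 448, 189 UMIs). The next highest were the ciliary-epithelium-like cluster at 10.3 ± 12.6 CPM (16 UMIs) and mural nuclei at 7.34 ± 8.21 CPM (3 UMIs). The highest ciliary-epithelium-like library was at 35.0 CPM, from 1 UMI in 6 nuclei, and the highest mural library at 17.4 CPM, also from 1 UMI. Muller glia, with Calcrl in every library, had Ramp2 at 0.919 ± 0.525 CPM. A Ramp2 UMI was present in 48.3% of endothelial nuclei (41.9 to 54.8%) and 22.3% after thinning (16.9 to 28.5%), against 0.254% and 0.16% of rods. Of the 88 endothelial nuclei with Calcrl, 47 (53.4%) also had Ramp2, where 48.3% of all endothelial nuclei did. The 5 most similar profiles were those of Sema3c, Platr22, Adgrl4, Abcc6 and Apol10b (r 0.968 to 0.991), and Adgrl4 is itself an endothelial receptor used here as a marker.

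Ramp1, the partner for calcitonin gene-related peptide, was highest in microglia at 29.1 ± 9.90 CPM (16.8 to 39.1, 97 UMIs). The second highest type, ganglion cells, had 4.02 ± 1.37 CPM (2.50 to 6.07), below every microglia library. Endothelial nuclei had 0 Ramp1 UMIs in 242 nuclei, which allows a share of up to 1.24% of nuclei with a UMI at this depth and sets no limit on nuclei that express the gene, and Muller glia had 2.24 ± 0.678 CPM. A Ramp1 UMI was found in 4.94% of microglia nuclei (3.97 to 6.08%) and in 0.319% of rods, and after thinning in 2.25% (1.56 to 3.13%) and 0.275%. The thinned shares of Muller glia (0.275%) and ganglion cells (0.23%, from 5 nuclei) were no higher than that of rods. Every ganglion library lay above the highest amacrine library (1.72 CPM), while the ganglion range overlapped that of rods (1.21 to 3.63 CPM). Whether these UMIs are background was not tested. Of the 93 microglia nuclei with Calcrl, 12 (12.9%) also had Ramp1, a higher share than the 4.94% among all microglia nuclei, although nuclei with more UMIs are more likely to show both. Hepacam2, Ak8, Cd83, Efcab11 and Hpse had the most similar profiles (r 0.944 to 0.975).

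Ramp3, the other adrenomedullin partner, had its highest mean in rods, the type taken as background for Calcrl. Its level there was 13.6 ± 2.66 CPM (10.6 to 16.9, 254 UMIs), against 5.46 ± 2.43 CPM in cones (2.21 to 8.78). Endothelial nuclei had 5.41 ± 5.95 CPM from only 3 UMIs, so their range, up to 11.6 CPM, met that of rods. Ganglion cells had 3.71 ± 0.936 CPM. A Ramp3 UMI was found in 1.93% of rods (1.72 to 2.16%) and 0.439% of bipolar cells, and after thinning in 1.23% (1.04 to 1.45%) of rods, 0.552% of cones (0.327 to 0.87%) and 0.1% of bipolar cells. The rod share thus exceeded that of the deeper bipolar nuclei before and after thinning. Of the 297 rods with Ramp3, 1 also had Calcrl, where 1.06 would be expected if both were independent. Pmvk, Rnf207, Pitpnm3, Tub and Zdhhc2 had the closest profiles (r 0.928 to 0.971), and each was higher in rods than in cones, microglia, astrocytes, Muller glia and vessel nuclei.

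Adm, the ligand, had its highest mean in astrocytes, which were 0.559% of the nuclei and held 34.7% of the 147 Adm UMIs. Their level was 40.5 ± 14.3 CPM (19.8 to 63.7, 44 UMIs after summing). Endothelial nuclei followed with 11.4 ± 12.9 CPM from 7 UMIs, with overlapping ranges, and mural and ciliary-epithelium-like sums had none. Muller glia were at 0.714 ± 0.806 CPM. An Adm UMI was present in 13.7% of the 292 astrocyte nuclei (9.97 to 18.2%), 4.51% after thinning, and in 0.0455% of rods. The 8 Adm UMIs of the microglia cluster all came from 1 group of 54 nuclei, singled out after its values were seen, whose leading genes were the early response and chemokine genes Cxcl1, Ccn1, Hes1, Cxcl2, Fos, Ier3 and Jun. Calcrl was hardly detected in astrocytes: 1 of 292 astrocyte nuclei had a Calcrl UMI (0.342%, 0.00867 to 1.89%). At this depth that sets no limit on nuclei that express the gene. The most similar profiles were those of C230072F16Rik, Lmcd1, Gm15473, Gm26652 and Kit (r 0.893 to 0.941).

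Few Muller nuclei with Calcrl showed a partner. Among 1069 Muller nuclei with Calcrl, 16 had a UMI of Ramp1, 4 of Ramp2 and 6 of Ramp3, in all 26 nuclei (2.43%). Of all 4764 Muller nuclei, 91 had a UMI of any of the 3, and 20.4 nuclei with both would be expected if they were independent. In mural nuclei, 0 of 19 nuclei with Calcrl had a UMI of any of the 3, as had 6 of all 133 mural nuclei. The depth per nucleus limits such counts: at these depths most nuclei are expected to show no UMI of a transcript at a few CPM, whether or not they carry it.

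The amacrine level of Calcrl came largely from 1 small group. When each cluster of at least 500 nuclei was clustered again, an amacrine cluster of 881 nuclei held a group of 95 nuclei (0.892% of amacrine nuclei, 12 to 22 per library), led by Tmem163, Robo3, Hs3st4, Prkcd and Tafa1, and chosen after its Calcrl values were seen. It held 198 of the 344 amacrine Calcrl UMIs (57.6%), and 68 of its 95 nuclei (71.6%, 61.4 to 80.4%) had at least 1, up to 18 in a single nucleus. After thinning the share was 22.1% (14.2 to 31.8%). The level was 520, 594 and 219 CPM in saline replicates 1, 2 and 6 and 438, 340 and 635 CPM in IL-27 replicates 4, 5 and 10, so the treatments overlapped, with a mean of 458 ± 158 CPM (n = 6). The other 10553 amacrine nuclei had 2.09 CPM, and 88 of them (0.834%) had a Calcrl UMI. The group carried Slc6a9, the glycine transporter of glycinergic amacrine cells, at 357 CPM, where the rest of its own cluster had 318 and all other amacrine nuclei 129 CPM. Of the enzymes that make GABA, Gad1 was at 13 CPM, against 57.5 and 205 CPM, and Gad2 at 104 CPM, against 51.6 and 87.7 CPM, with a UMI in 35.8% of the group's nuclei. Of the 11 endothelial markers, Cdh5, Tie1, Vwf and Egfl7 were at 0 in the group, Cldn5, Emcn and Adgrl4 had 1 UMI each, Pecam1 4 and Flt1 3. The summed list was 217 CPM against 78.5 CPM in other amacrine nuclei, most of it from Kdr (150 and 36.5 CPM) and Tek (45.7 and 24.5 CPM). No nucleus of the group with Calcrl had a UMI of Ramp1, Ramp2 or Ramp3, and the group held 1 Ramp2 UMI in all.

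**Figure D2:**
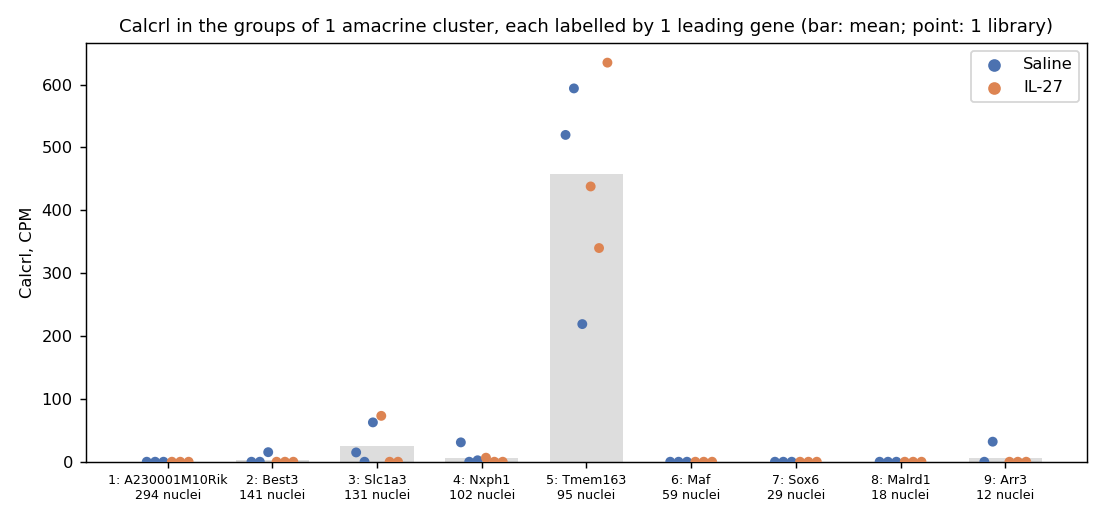
Calcrl level (CPM) in the 9 groups of 1 amacrine cluster, each labelled by its number and first leading gene. Points are libraries (saline blue, IL-27 orange) and bars their mean. The 95 nuclei of group 5 lie between 219 and 635 CPM, and 8 of the 9 groups have a mean under 26 CPM.

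Within the other types the genes were also uneven, again in groups singled out after their values were seen. In the microglia cluster, a group of 73 nuclei led by Hepacam2, Itgae, Wdfy4, H2-Ab1 and Clec9a, genes of dendritic cells, had Calcrl at 101 ± 58.7 CPM, with a UMI in 15 nuclei (20.5%, 12.0 to 31.6%). A group of 38 nuclei with Ccr7 among its leading genes had 112 ± 140 CPM from 10 UMIs. At a resolution of 0.5, the cluster led by H2-Eb1, H2-Aa and Cd74 (316 nuclei) had Calcrl at 49.5 ± 22 CPM, against 22.1 ± 10.9 CPM in the 1245 nuclei led by Fyb, Ly86 and Adgre1. Ramp1 was at 26.4 ± 19.8 and 27.7 ± 10.6 CPM in these same clusters. In ganglion cells, Ramp1 was highest in a group of 46 nuclei whose leading genes included Spp1 (27.0 ± 18.0 CPM, a UMI in 28.3% of nuclei), and Ramp3 in a group of 115 nuclei led by Slc7a11 and Gpc5 (22.2 ± 7.33 CPM, a UMI in 18.3%). These ganglion shares come at medians of 15486.5 and 9640 UMIs per nucleus, and after thinning they were 4.35% (0.531 to 14.8%) and 2.61% (0.541 to 7.43%).

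Between treatments, Calcrl in Muller glia had the log2 fold change farthest from 0 among the 13 pairs of a member and a cell type that passed the filter on low counts. It was 63.9, 60.6 and 50.7 CPM in saline replicates 1, 2 and 6 and 79.5, 78.2 and 122 CPM in IL-27 replicates 4, 5 and 10. All 3 IL-27 libraries lay above all 3 saline libraries, with IL-27 replicate 10 far above the others. The means were 58.4 ± 6.83 and 93.3 ± 25 CPM (n = 3 each), a log2 fold change of 0.66 ± 0.16 (SE, edgeR), or 1.58-fold, and 0.45 without IL-27 replicate 10. The share of Muller nuclei with a Calcrl UMI was 21.5%, 19.9% and 16.2% in saline and 23.4%, 23.1% and 32.4% in IL-27 libraries, and 6.37%, 5.06% and 4.50% against 7.86%, 6.92% and 11.9% after thinning.

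**Figure D3:**
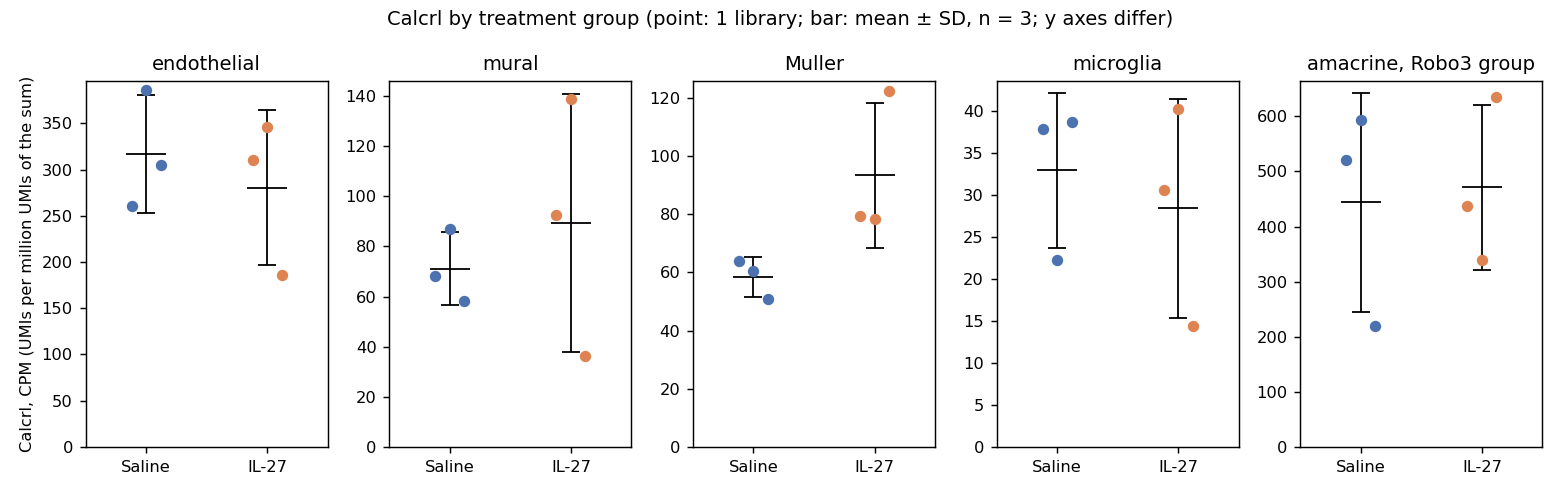
Calcrl level (CPM) in saline and IL-27 libraries for 4 cell types and the small amacrine group led by Tmem163 and Robo3. Points are libraries, and bars give the mean ± SD (n = 3). Only the Muller panel has no overlap between the treatments, with 50.7 to 63.9 CPM in saline and 78.2 to 122 CPM in IL-27 libraries.

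The other 42 of the 55 pairs in the 11 types compared were too low to be fitted. The share of genes with every IL-27 library above every saline library, among genes with at least 1 UMI, was 4.37% in Muller glia, 3.78% in rods, 3.28% in endothelial nuclei, 3.49% in cones and 3.43% in bipolar cells. These 5 types are the ones that held a member of that kind, 1 each, and no other named type held any. The members were Calcrl in Muller glia and Calcrl in rods (14 UMIs in saline and 35 in IL-27 libraries). The others were Adm in endothelial nuclei (1 and 6 UMIs), Ramp1 in cones (0 and 5 UMIs) and Ramp1 in bipolar cells (7 and 14 UMIs). Because the members were chosen with this contrast known, nothing is read from their count.

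In the vessel cells the values of the receptor pair overlapped between treatments. Endothelial Calcrl was 261, 386 and 305 CPM in saline and 310, 346 and 186 CPM in IL-27 libraries (log2 fold change -0.16 ± 0.28). Endothelial Ramp2 was 337, 201 and 448 CPM in saline and 300.2, 281 and 302 CPM in IL-27 libraries (-0.22 ± 0.31). Both pairs of groups overlapped, and both signs rest on single libraries: Calcrl was at 0.03 without IL-27 replicate 10 and Ramp2 at 0.12 without saline replicate 6. In the same endothelial sums the mural marker list was at 15.4 to 359 CPM in saline and 375 to 1090 CPM in IL-27 libraries (9 of 10 markers higher, none at 0 throughout), with the part of mural nuclei in these values not tested. Mural Calcrl was 68.1, 86.9 and 58.4 CPM in saline and 92.6, 139 and 36.2 CPM in IL-27 libraries, from 2 to 8 UMIs a library, too few to be fitted, and the ranges overlapped. Cldn5 had 0 and Pecam1 1 UMI in the mural sums, whereas endothelial sums held 676 and 398.

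In microglia, Ramp1 was 31.5, 34.4 and 36.3 CPM in saline and 39.1, 16.8 and 16.8 CPM in IL-27 libraries (log2 fold change -0.49 ± 0.37), so 1 IL-27 library lay above and 2 below the saline range. Microglial Calcrl overlapped between the treatments (-0.13 ± 0.37), as did rod Ramp3, with 14.5 ± 2.29 and 12.7 ± 3.15 CPM (-0.17 ± 0.23). Astrocyte Adm was 41.6, 63.7 and 39.4 CPM in saline and 34.3, 44.2 and 19.8 CPM in IL-27 libraries, from 3 to 10 UMIs a library. The ranges overlapped, and this gene was too low in astrocytes to be fitted. In amacrine and ganglion cells the 7 fitted pairs had log2 fold changes between -0.55 (Calcrl in ganglion cells) and 0.46 (Ramp3 in amacrine cells), each with overlapping groups.

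The Muller difference was looked at within Muller subclusters, defined without the 5 members. The IL-27 mean was the higher one in 5 of 5 subclusters with all libraries and in 3 of 5 without IL-27 replicate 10. In the subcluster led by Gm29683 and Cntn3 (1678 nuclei), which had the most Calcrl, the level was 73.5, 72.7 and 71.9 CPM in saline and 105, 106 and 161 CPM in IL-27 libraries, and the groups did not overlap. In the largest subcluster, led by Aff2 and Gpnmb (1976 nuclei), it was 51.7 ± 9.04 and 77.6 ± 30.5 CPM, with overlapping groups. There IL-27 replicate 10 was at 113 CPM and replicates 4 and 5 at 57.3 and 62.8 CPM. Both subclusters that turned without replicate 10 were smaller. The one with Calca among its leading genes (837 nuclei) had 67.2, 44.7 and 50.3 CPM in saline and 70.8, 17.9 and 235 CPM in IL-27 libraries, the last from 23 nuclei, and its means without replicate 10 were 54.1 and 44.3 CPM. The subcluster of interferon response genes led by Iigp1 and Cxcl10 (220 nuclei) had the least Calcrl, 24.2 ± 8.07 and 36.1 ± 33.8 CPM, and the IL-27 mean was 20.6 CPM without replicate 10.

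At a resolution of 0.5 the IL-27 mean was the higher one in 9 of 9 Muller subclusters. It was the higher one in 8 of 9 without IL-27 replicate 10 and in 7 of 9 without saline replicate 6. Of the Muller nuclei of IL-27 replicate 10, 64.5% lay in a single subcluster led by Fkbp5 and Prss56. That subcluster held 0.634 to 2.64% of the Muller nuclei of the other 5 libraries, so IL-27 replicate 10 stands apart. In the largest subcluster (1243 nuclei, led by 6030498E09Rik), Calcrl was 58.6, 53.2 and 49.9 CPM in saline and 61.1 and 59.3 CPM in IL-27 replicates 4 and 5, with 215 CPM in the 19 nuclei of replicate 10. In the next (911 nuclei, led by Lama2 and Itga2) the groups overlapped, at 54.7 ± 8.72 and 57.7 ± 3.49 CPM. The subcluster of 854 nuclei led by Gm29683 and Nxph1 had 61.6, 68.7 and 63.6 CPM in saline and 91.2, 98.6 and 119 CPM in IL-27 libraries, without overlap. In replicates 4 and 5, the values of this subcluster lay above its saline range, while those of the subcluster led by Lama2 and Itga2 lay within its own.

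**Figure D4:**
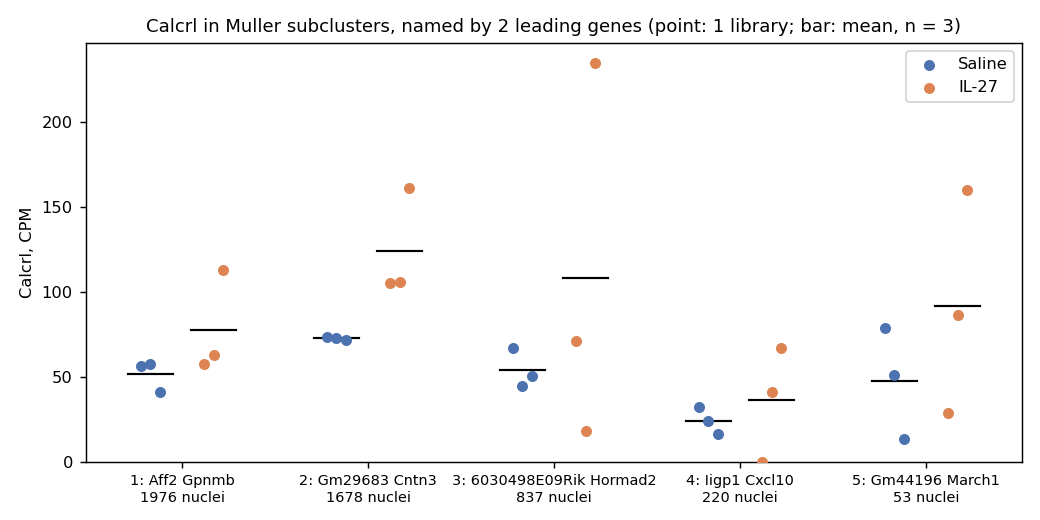
Calcrl level (CPM) in 5 Muller subclusters, each labelled by its number, leading genes and number of nuclei. Points are libraries (saline blue, IL-27 orange) and bars the mean of 3 libraries. The IL-27 mean is higher in all 5, but not in subclusters 3 and 4 without IL-27 replicate 10 (235 and 66.9 CPM), and the groups are apart without overlap in subcluster 2.

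Endothelial nuclei carry more Calcrl than Muller glia, so endothelial markers were followed in the Muller sums. Their summed level was 1880 to 2020 CPM in saline and 1850 to 2090 CPM in IL-27 libraries (7 of 11 markers higher, none at 0 throughout). Most of it was Flt1 and Kdr, at 1350 and 599 CPM in Muller glia, while Cldn5, Cdh5 and Tie1 were at 1.60, 0.173 and 0.088 CPM. In the 4367 Muller nuclei without a UMI of the 8 endothelial markers other than Flt1, Kdr and Tek, Calcrl was 59.0 ± 6.49 CPM in saline and 94.1 ± 26.8 CPM in IL-27 libraries. Over the 22 alternatives tried, the Muller log2 fold change of Calcrl lay between 0.45 and 0.83. These refits reuse the libraries from which Calcrl was chosen and are no separate support. The mural, astrocyte and ciliary epithelium lists were at 97.8 to 108, 96.3 to 105 and 14.0 to 15.2 CPM in saline and at 84.3 to 104, 93.6 to 143 and 15.6 to 17.7 CPM in IL-27 libraries, and the part of any of these cells in the Calcrl values was not tested.

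**Figure D5:**
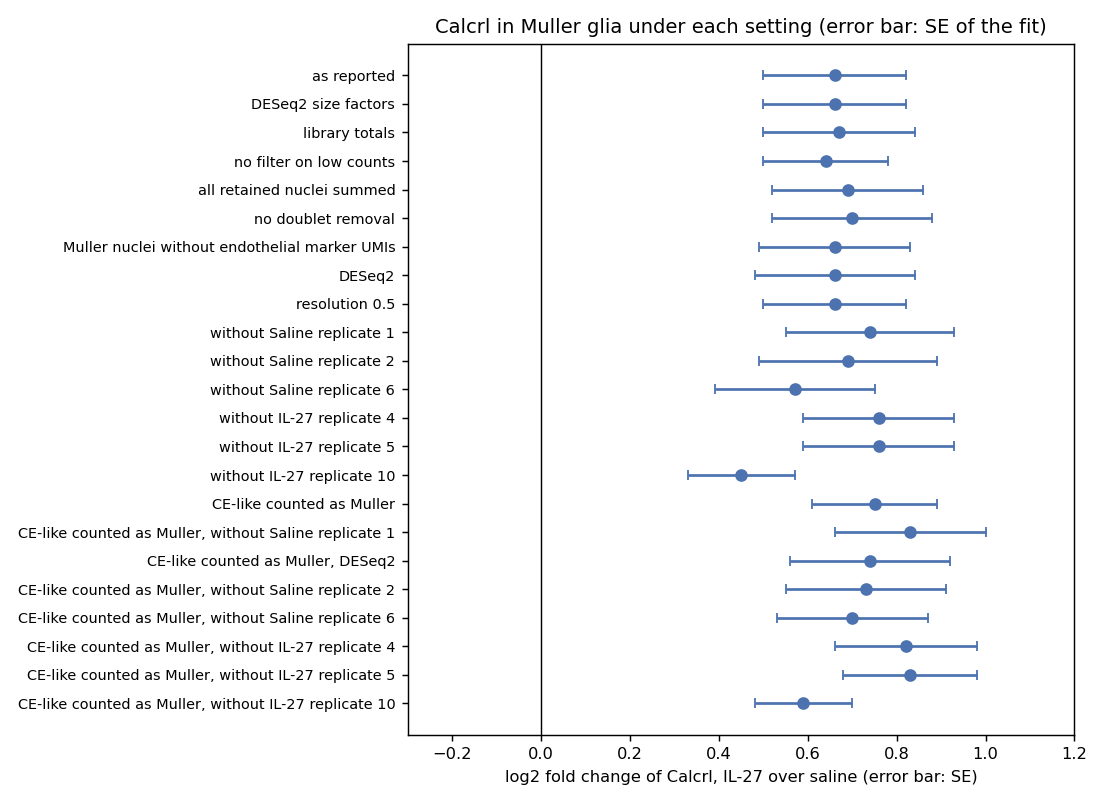
Log2 fold change of Calcrl in Muller glia, IL-27 over saline, with its SE, for the fit as reported (top) and 22 alternatives, where CE-like stands for the ciliary-epithelium-like cluster. The points lie between 0.45 without IL-27 replicate 10 and 0.83. All fits reuse the libraries from which the gene was chosen, so the range describes the processing only.

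The other genes of the pathway came from 3 lists of 54 genes, of which 53 have a row in the files. In 363 tests of list genes over the 11 types, 0 passed an adjusted p of 0.05 (edgeR quasi-likelihood test with Benjamini-Hochberg adjustment over all genes of a type), and DESeq2 called 0. Over all genes, 0.0369% of 13543 were called in Muller glia, 0.0076% of 13159 in rods and 0.00601% of 16646 in amacrine cells, and 0 in each of the other 8 types, where DESeq2 called 1 gene in astrocytes, 2 in bipolar cells and 0 in the other 6. Before adjustment, 3 higher (0.826%) and 18 lower (4.96%) values of list genes had a p under 0.05, against 1.81% higher and 1.66% lower among the 105888 tests of all genes in the same types. The same libraries and genes enter many of these tests, and the difference between the shares was not tested. Among other ligands of the family, Calca, which encodes calcitonin and calcitonin gene-related peptide, was highest in Muller glia at 14.4 ± 5.27 CPM, with rods at 4.28 ± 1.42 CPM. Its Muller level was 14.8, 17.2 and 23.1 CPM in saline and 11.5, 8.04 and 11.8 CPM in IL-27 libraries, without overlap (log2 fold change -0.81 ± 0.22, edgeR adjusted p = 0.766). The share of all Muller genes with every IL-27 library below every saline library was not counted, so nothing is read from the lack of overlap. One Muller subcluster was led by Calca among other genes, and it held 13 to 41.2% of saline and 2.78 to 20.8% of IL-27 Muller nuclei. Calcb reached 1.06 ± 0.733 CPM in ganglion cells, Adm2 had a single UMI and Iapp no more than 3 UMIs in each type. Ackr3, a scavenging receptor for adrenomedullin, was at 115 ± 103 CPM in the ciliary-epithelium-like cluster, 86.6 ± 60.5 CPM in mural and 35.2 ± 29.2 CPM in endothelial nuclei. Pam, the enzyme that amidates these peptides, was highest in astrocytes, the type with most Adm, at 493 ± 48.2 CPM.

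In Muller glia, 4 of 11 calcitonin family genes, 26 of 29 Gs and cyclic AMP genes and 13 of 14 hypoxia-inducible genes were high enough to test, and 0 passed. The median log2 fold changes were 0.03, 0.01 and -0.14, with 0.0 over all Muller genes. Of the hypoxia-inducible genes, 12 were on the lower side and 1 on the higher side. Vegfa, the endothelial growth factor, was 152, 133 and 128 CPM in saline and 97.5, 93.8 and 90.6 CPM in IL-27 libraries, without overlap (-0.55 ± 0.11, edgeR adjusted p = 0.237). For this lack of overlap too, the share over all Muller genes was not counted. Pgk1, a glycolytic enzyme, was 44.4 ± 3.53 and 36.9 ± 4.65 CPM (-0.27 ± 0.13, edgeR adjusted p = 0.9712).

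In endothelial nuclei, 2, 7 and 4 genes of the 3 lists were tested and 0 passed, with median log2 fold changes of 0.33, 0.0 and 0.17 against -0.01 over all genes. Those with the smallest unadjusted p were Pde4b, which degrades cyclic AMP, at 339 ± 26.4 CPM in saline and 208 ± 41.7 CPM in IL-27 libraries (-0.73 ± 0.28), the cyclic AMP responsive factor Creb1 (0.46 ± 0.28) and the cyclic AMP sensor Rapgef4 (-0.41 ± 0.26). The edgeR adjusted p was 0.9995 for each. In mural nuclei, 1, 6 and 3 genes were tested and 0 passed, with medians of 0.71, -0.34 and -0.06 against 0.0. There Pde4b was 277 ± 63.0 and 151 ± 25.6 CPM (-0.91 ± 0.42), Rapgef4 had -0.99 ± 0.52 and Pam 0.71 ± 0.43, each with an edgeR adjusted p of 0.9972. The sign of mural Rapgef4 turned when a library was left out.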

How the data were processed

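The deposited files hold raw UMI counts per gene and nucleus, which the authors made from single-nucleus Chromium libraries with Cell Ranger. The labels and methods name version 9.0.1, with Seurat 5.2.1, whereas the matrix headers name 8.0.1, and the genome build is not given in the sources used here. Positions came from GENCODE M21 by gene ID (32158 of 32285 matched).

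Of 56634 barcodes, 56205 passed limits of over 500 UMIs, 200 genes or more, and a mitochondrial share under 5%, and 4002 doublets were removed with Scrublet (scanpy 1.11.5) at an expected rate of 8%. Nuclei were clustered without integration (2000 variable genes without members and list genes, 25 components, 20 neighbours, Louvain in igraph 0.11.9, resolution 0.25, seed 20). A cluster was named where at least 3 markers of a list, and no fewer than 1 in 3 of them, were found in at least 10% of its nuclei and above the mean of all clusters, and took the type with the highest mean standardized level. This scoring was set after the clusters were seen, and 2357 nuclei stayed unnamed. Counts were summed per library and type leaving aside nuclei whose log2 UMI total was farther than 2 median absolute deviations from the median. After filterByExpr (minimum count 10) and TMM scaling, the sums were fitted with edgeR 4.0.16 (quasi-likelihood, R 4.3.3). The ciliary-epithelium-like cluster had 6 nuclei in 1 library and was not fitted. DESeq2 1.42.0 was an alternative. The scripts were tested on simulated data.

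The members and lists were chosen with earlier results of these data known. Named genes are the members, list genes past the threshold, the 3 list genes with the smallest p in Muller, endothelial and mural nuclei, and the 5 profiles most like each member. A gene that this rule names is not reported here. Genes and groups outside that rule are said to be chosen after their values were seen, or are ligands and receptors given for their levels. Shares have 95% Clopper-Pearson intervals and a limit of 3 counts for a 0. Alternatives were other scalings, no filter, each library left out, all nuclei summed, resolution 0.5 and no doublet removal. Chosen after seeing the data were the ciliary-epithelium-like cluster counted as Muller, Muller nuclei without endothelial marker UMIs, and the finer clustering (15 components, resolution 0.5).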

Additional observations from a re-analysis of the deposited data

How the results depend on the processing

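No paired analysis was possible because the saline and IL-27 libraries share no replicate number. Of 21 named results, 14 kept their direction under every alternative run. The members' values are given with no test. The log2 fold change of Calcrl in Muller glia ranged from 0.45 (without IL-27 replicate 10) to 0.76 over the libraries left out, was 0.64 without a filter on low counts and, with the ciliary-epithelium-like cluster counted as Muller (chosen after seeing the data), 0.59 to 0.83 over the libraries left out. The share of Muller subclusters with the higher mean in IL-27 libraries ranged from 60% (without IL-27 replicate 10) to 100% over the libraries left out, also chosen after seeing the data. Some signs turned when a library was left out. Endothelial Calcrl ranged from -0.31 to 0.03, endothelial Ramp2 from -0.46 to 0.12 and microglial Calcrl from -0.50 to 0.14 (0.01 without doublet removal). Amacrine Ramp1 ranged from -0.11 to 0.10, amacrine Ramp2 from -0.15 to 0.46, ganglion Ramp3 from -0.27 to 0.12 and mural Rapgef4, a larger change, from -1.68 to 0.07. The 5 genes called in Muller glia became 16 with DESeq2, 99 without a filter, 0 without doublet removal and 0 to 10 with a library left out. With the ciliary-epithelium-like cluster counted as Muller they became 98 with DESeq2 and, leaving out a library, 0 without saline replicate 1 or 2, 1 without saline 6 or IL-27 4, 3 without IL-27 5 and 414 without IL-27 10. Without a filter, 20 genes were called in endothelial nuclei and 2 list genes in all, Calca (-0.83) and Vegfa (-0.57) in Muller glia. Without doublet removal the endothelial cluster took in mural nuclei, which then had no value of their own, and its Calcrl and Ramp2 levels were 204 and 199 CPM, with 27.8% and 33.6% of nuclei holding a UMI. Thinning to 1000 UMIs lowered the share of nuclei with a UMI to 23.3% for endothelial Calcrl, 2.25% for microglial Ramp1, 22.3% for endothelial Ramp2, 1.23% for rod Ramp3 and 4.51% for astrocyte Adm. With the ciliary-epithelium-like cluster counted as Muller, the ratio of IL-27 to saline in the Muller sums turned below 1 for the astrocyte list (0.984) and the ciliary epithelium list (0.238). The causes were not tested. Muller glia without the saline-enriched subcluster were not run as a separate alternative, since those nuclei formed the ciliary-epithelium-like cluster and were outside the Muller sums already. Few nuclei limit the vascular values: endothelial sums rest on 23 to 47 nuclei a library and mural sums on 12 to 27.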
